A study of Rattus norvegicus with 24 samples.

Results

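The sodium pump (Na,K-ATPase) genes described here are the beta subunit genes Atp1b1, Atp1b2 and Atp1b3 and the genes of the FXYD regulators Fxyd1, Fxyd2, Fxyd3, Fxyd4 and Fxyd5. They were chosen by name, as the transcript clusters that the annotation of the array pairs with these symbols. Each of the 8 genes had 1 cluster, among 14324 named genes and 28894 clusters in all.

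RNA came from the renal cortex and the renal medulla of 12 male Wistar rats and was hybridised to 24 Affymetrix whole-transcript arrays, 1 for each tissue of each animal. The 6 control rats (animals 1, 13, 15, 16, 29 and 30) ate a standard rodent diet with tap water, and the 6 lithium-treated rats (animals 6, 17, 18, 19, 21 and 22) ate food with lithium, 40 mmol per kg for the first 7 days and 60 mmol per kg after that. All were killed at 6 months, and only the lithium-treated rats had a salt block. No genetic change was made in either group, and the diets differed in the salt block as well as in lithium, so the effects of the 2 cannot be told apart.

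The sodium pump moves sodium out of the cell and potassium into it, and in kidney tubules it lies in the basolateral membrane, where it keeps cell sodium low so that sodium can enter from the urine side. The alpha subunit carries out the transport, and the beta subunit is a glycoprotein that the alpha subunit needs in order to fold and reach the membrane. FXYD proteins are small membrane proteins that bind the pump and alter its affinity for ions, and they differ between nephron segments and tissues. Fxyd2 encodes the gamma subunit of the renal pump, Fxyd4 the corticosteroid hormone-induced factor of the collecting duct, and Fxyd1 phospholemman, which is best known from heart and muscle.

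The values are log2 signal intensities as the authors deposited them, after removal of scan date within each tissue. The arrays of a tissue fell into groups taken to share a scan date. These scan groups were recovered from the values, since the labels give no dates. Lithium was compared with control within tissue with limma with scan group in the fit (adjusted p under 0.05 over all clusters tested). The cortex array of animal 17 had a scan group to itself and carried the average of the lithium-treated cortex (to within 6.67e-05), so it was not counted as a replicate and SDs there have n = 5. Proximal tubule markers (15 of 15 measured) had a mean log2 signal of 10.32 to 10.93 per array in cortex and of 7.06 to 9.19 in medulla, and 14 of the 15 were lower in control medulla than in control cortex (19.1% of all clusters were). The medulla arrays differed widely in thick ascending limb markers (9 of 10 measured, mean per array from 7.30 to 10.99). The lowest were those of lithium-treated animals 17 (7.30) and 18 (8.38) and control animal 30 (8.08), with control animal 15 next (9.12). The share of each tubule segment in a piece of tissue was not measured, and in such bulk samples fewer cells of a type and less RNA per cell cannot be told apart.

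Control medulla was set against control cortex to show where along the kidney each gene is expressed. Of the 8 genes, 6 reached the filter value, a log2 signal of 6, on at least 4 of the 6 control arrays of each tissue. Atp1b2 and Fxyd3 reached it in medulla alone, so their tissue differences are given as a description with no test. Of the 6 genes, Fxyd4, Fxyd5 and Atp1b3 were higher in medulla and Atp1b1 was lower, so that 4 passed the test. Among all clusters tested, 36.5% were higher and 55.6% passed, and among the clusters that reached the filter value in both tissues 34.6% were higher, 19.7% were lower and 54.4% passed. Fxyd4 differed most, by 9.72-fold. The array medians were 0.36 higher in medulla than in cortex, and the values were therefore centred on each array's median for this comparison. On these centred values 65.6% of the clusters called were higher in medulla, against 88.6% on the values as deposited and 54.2% after quantile normalization over all arrays. The medians of all log2 differences were 0.15, 0.51 and 0.04, so each difference below should be read against 0.15.

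Among the beta subunits, Atp1b3 had deposited log2 signals of 8.06 to 8.45 in control cortex (median 8.09) and of 9.51 to 9.77 in control medulla (median 9.60). Its difference was 1.10 after centring (standard error 0.0901, n = 6 animals, adjusted p = 1.86e-05), a 2.15-fold higher level in medulla. All 6 medulla arrays lay above all cortex arrays, and the medulla arrays were close together. Atp1b2, a beta subunit best known from brain, ran from 5.42 to 5.86 in control cortex (median 5.77) and from 6.59 to 7.95 in control medulla (median 7.30). All control cortex arrays were under the filter value and not shown to be above background, so its fitted log2 difference of 1.22 is a description only. Its medulla arrays fell into high values in animals 1 (7.95), 15 (7.78) and 30 (7.57) and low values in animals 13 (6.88), 16 (7.03) and 29 (6.59).

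Atp1b1, the main beta subunit of kidney tubules, was bright in both tissues, at 11.49 to 11.65 in control cortex (median 11.60) and 11.20 to 11.82 in control medulla (median 11.64). As deposited, the groups overlapped and the difference was -0.02 (adjusted p = 0.904). After centring it was -0.38 (standard error 0.131, adjusted p = 0.0345), and it was -0.05 after quantile normalization (adjusted p = 0.761), so that the call rests on the centring. It was also lost when any of 9 of the 12 arrays was left out: the medulla arrays of animals 1, 15 and 30 and each of the 6 cortex arrays, with adjusted p-values of up to 0.0918.

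Among the FXYD genes, Fxyd4 had log2 signals of 6.62 to 7.04 in control cortex (median 6.75) and of 9.55 to 11.20 in control medulla (median 10.51). The log2 difference was 3.28 (standard error 0.341, adjusted p = 7.75e-05), and no array of one tissue overlapped with the other. Its medulla values split the animals as those of Atp1b2 did, with animals 1 (11.17), 15 (11.00) and 30 (11.20) high and animals 13 (9.62), 16 (10.02) and 29 (9.55) low. Among markers of principal cells, the water channel gene Aqp2 was 12.58, 12.33 and 12.60 in the first 3 of these arrays and 11.75, 11.95 and 11.50 in the others. The sodium channel gene Scnn1a ran the opposite way, at 7.06, 5.51 and 5.69 in animals 1, 15 and 30 and at 7.76 or above in animals 13, 16 and 29. Hsd11b2 was 10.11, 8.60 and 7.51 in the first 3 and 9.96, 10.41 and 10.74 in the others. The mean over the principal cell list (11 of 11 measured) was 9.26, 8.70 and 8.61 against 8.71, 8.89 and 8.81, so the list as a whole did not split the animals as Fxyd4 did. The thick ascending limb markers averaged 10.14, 9.12 and 8.08 in animals 1, 15 and 30 and 10.51, 10.99 and 10.65 in animals 13, 16 and 29. Thin limb markers (7 of 9 measured) averaged 9.65, 9.47 and 9.34 in animals 1, 15 and 30 and 8.97, 9.36 and 8.88 in the others. Among 3 of them read singly, Akr1b1 was 12.79, 12.20 and 12.62 against 10.94, 11.80 and 10.90. Cryab was 11.19, 11.09 and 11.19 against 10.43, 10.70 and 10.41, and Slc14a2 was 10.70, 10.88 and 11.54 against 9.58, 10.49 and 8.31. The part of all these markers in the spread of Fxyd4 was not tested.

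Fxyd5, which encodes dysadherin, a protein that also affects cell adhesion, ran from 5.93 to 6.52 in control cortex (median 6.26) and from 7.60 to 8.42 in control medulla (median 7.90). It was 2.54-fold higher in medulla, a log2 difference of 1.35 (standard error 0.150, adjusted p = 1.15e-04), with no overlap between the tissues. In all, the centred arrays of the 2 tissues did not overlap for 3 of the 6 genes, Fxyd4, Fxyd5 and Atp1b3, as for 38.1% of the clusters that reached the filter value in both tissues and 39.2% of all clusters tested. These 3 genes were higher in medulla in 6 of 6 control animals, and they passed the test with each array left out in turn and with the arrays as deposited.

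Fxyd3, a regulator found in epithelia, was at 5.16 to 5.74 in control cortex and 5.72 to 6.77 in control medulla. The cortex values were under the filter, and the fitted log2 difference of 0.42 is a description only. Fxyd2 and Fxyd1 did not pass. Fxyd2 ran from 9.92 to 10.41 in control cortex (median 10.25) and from 10.25 to 10.83 in control medulla (median 10.51). Its centred difference was -0.02 with a 95% interval of -0.30 to 0.25, and as deposited it was 0.34 (adjusted p = 0.0302), so no direction can be given.

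Fxyd1 ran from 7.07 to 7.89 in control cortex (median 7.59) and from 7.04 to 8.73 in control medulla (median 8.22). Its difference of 0.05 had a 95% interval of -0.60 to 0.70. The medulla arrays of control animals 15 (7.27) and 30 (7.04) were low, and the other 4 lay between 8.21 and 8.73. Without these 2 arrays, which had the lowest thick ascending limb markers among controls, Fxyd4, Fxyd5 and Atp1b3 were still higher in medulla, by 2.84, 1.15 and 1.03 on the log2 scale. This setting was chosen after seeing the data.

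The plot of the values by array shows this arrangement for all 8 genes.

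**Figure D1:**
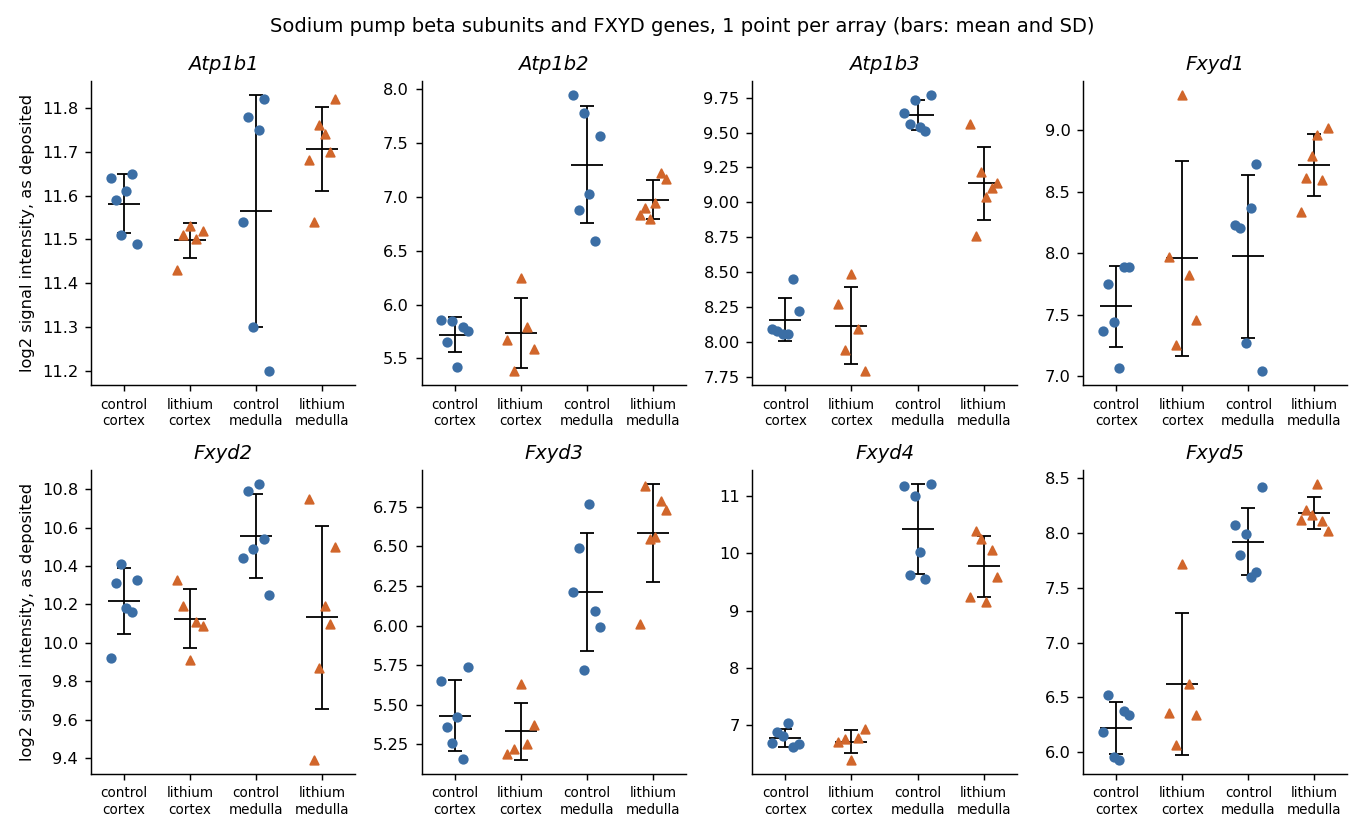
Deposited log2 signal intensity (y axis, a scale of its own for each gene) of the 8 genes in control and lithium-treated rats in cortex and medulla, 1 point per array, with the mean and SD as bars. Fxyd4, Fxyd5, Atp1b2 and Atp1b3 lie higher in both medulla groups than in control cortex, and Atp1b3 in 5 of 6 lithium-treated medulla arrays lies below every control medulla array. The cortex array of lithium-treated animal 17, which carries the mean of its group, is not drawn.

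The promoters of Fxyd4, Fxyd5, Atp1b2 and Atp1b3 are shown because all control medulla arrays of these 4 genes lay above the control cortex arrays. They are the 250 bases before the RefSeq start site on build GRCr8 of the rat genome, read in the direction of the gene. The submitters' processing notes name another build, rn4, for the arrays. Promoters of 5 of the 8 genes were matched, among 33469 promoter entries. Capitals mark 3 motifs on either strand. They are TATAAA, which binds the general transcription machinery close to start sites, GGGCGG, which binds factors of the Sp family, and TGGAAA, which is the core of tonicity-responsive elements bound by Nfat5. A further motif searched, TGTTCT, is an arm of the binding sequence of steroid receptors. None of the matches overlap with each other.
Fxyd4 (chr4:152786046-152786295, minus strand): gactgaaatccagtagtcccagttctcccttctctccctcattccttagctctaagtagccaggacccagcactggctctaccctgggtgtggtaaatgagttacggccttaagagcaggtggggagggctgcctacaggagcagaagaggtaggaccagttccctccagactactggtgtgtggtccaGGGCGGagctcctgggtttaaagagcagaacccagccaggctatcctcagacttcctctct
Fxyd5 (chr1:95404723-95404972, minus strand): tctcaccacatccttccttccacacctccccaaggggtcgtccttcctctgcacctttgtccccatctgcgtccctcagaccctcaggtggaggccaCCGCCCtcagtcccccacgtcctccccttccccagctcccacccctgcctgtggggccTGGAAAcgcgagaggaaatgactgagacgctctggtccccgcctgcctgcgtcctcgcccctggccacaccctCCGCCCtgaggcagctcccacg
Atp1b2 (chr10:54823709-54823958, minus strand): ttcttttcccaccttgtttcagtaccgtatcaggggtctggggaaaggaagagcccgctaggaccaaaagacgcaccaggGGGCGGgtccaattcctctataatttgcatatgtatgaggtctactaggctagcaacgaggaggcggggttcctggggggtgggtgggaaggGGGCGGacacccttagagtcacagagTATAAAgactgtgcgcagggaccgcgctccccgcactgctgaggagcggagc
Atp1b3 (chr8:105821152-105821401, minus strand): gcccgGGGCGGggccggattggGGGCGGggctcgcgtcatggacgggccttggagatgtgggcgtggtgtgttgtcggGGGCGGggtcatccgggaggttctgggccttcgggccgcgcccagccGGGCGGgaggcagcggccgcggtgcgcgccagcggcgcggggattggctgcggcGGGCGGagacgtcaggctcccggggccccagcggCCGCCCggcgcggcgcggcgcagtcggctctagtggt

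In these windows GGGCGG matched 6 times in Atp1b3, 2 times each in Atp1b2 and Fxyd5 and 1 time in Fxyd4, and 30.5% of all promoter entries held it. TATAAA was found in Atp1b2 alone among the 4, starting 52 bases before the start site (12.9% of all entries). TGGAAA was found in Fxyd5 alone (19.7% of all entries), and TGTTCT in none of the 4 (17.5%). The second Fxyd5 entry of the table (chr1:95404375-95404624) held none of these letters. The GC content of the windows differed widely, from 55.6% with 2 CG pairs in Fxyd4 to 79.6% with 38 CG pairs in Atp1b3, against medians of 51.2% and 5 over all entries. A match is a description of letters and shows no binding.

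Lithium was then compared with control in medulla. None of the 8 genes passed the test (1.19% of all clusters did, 190 of 16025), and no gene had groups without overlap (3.71% of clusters did). At an unadjusted p under 0.05 there were 2 of 8, Atp1b3 and Fxyd1, as against 19.6% of all clusters. The median log2 difference of the 8 was -0.09, and that of all clusters was -0.01.

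Atp1b3 had the smallest p of the 8. Its log2 signals were 9.51 to 9.77 in control medulla (median 9.60) and 8.76, 9.04, 9.10, 9.14, 9.22 and 9.56 in the lithium-treated animals 17, 19, 21, 22, 18 and 6. The arrays of 5 of 6 lithium-treated rats lay below every control array, and that of animal 6 lay among the controls. The log2 difference was -0.49 (standard error 0.127, 95% interval -0.77 to -0.21), a 1.40-fold lower mean, with an adjusted p of 0.0827. It was -0.44, -0.51 and -0.52 within the 3 scan groups, and the exact permutation p within scan groups was 0.00926, the smallest these groups allow (0.148 after adjustment over 16 values, 8 genes in 2 tissues). Without the array of animal 6 it passed (-0.60, adjusted p = 0.0108), and with the other arrays left out in turn the adjusted p went up to 0.195. It also passed without scan group in the fit (adjusted p = 0.0264). That fit counted too many residual degrees of freedom, since scan date was removed before deposit. In simulated data 7.91% of unchanged medulla clusters had an unadjusted p under 0.05 in it, against 5.01% with scan group.

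In control medulla Atp1b3 was 9.77, 9.73 and 9.64 in animals 30, 15 and 1, whose thick ascending limb markers averaged 8.08, 9.12 and 10.14. It was lower, at 9.56, 9.51 and 9.54, in animals 13, 29 and 16, where these markers averaged 10.51, 10.65 and 10.99. Among the lithium-treated arrays, animal 17 had the lowest markers (7.30) and the lowest Atp1b3 (8.76). Animal 6 had the highest of both (10.38 and 9.56). In animals 18, 21, 19 and 22 the markers averaged 8.38, 9.69, 9.83 and 9.905, and Atp1b3 was 9.22, 9.10, 9.04 and 9.14. Without the medulla arrays of animals 17, 18 and 30, the 3 with the lowest of these markers, the difference was -0.34 (adjusted p = 0.324), a setting chosen after seeing the data. Endothelial markers (5 of 8 measured) had a mean log2 signal of 8.77 to 9.48 per array in control medulla and of 8.37 to 8.91 in lithium-treated medulla, and 1 of the 5, Emcn, passed the test (-0.91, adjusted p = 0.0462). Cd34, a gene of endothelium and blood-forming cells, had the highest correlation with Atp1b3 over deviations from the group means (Pearson r = 0.876 over 24 arrays). Their part in the difference was not tested.

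The other beta subunits gave smaller differences. Atp1b2 ran from 6.59 to 7.95 in control medulla and from 6.80 to 7.22 in lithium-treated medulla (median 6.92), so that every lithium-treated array lay within the range of the controls. Its log2 difference was -0.32 (95% interval -0.82 to 0.18, adjusted p = 0.458). Atp1b1 ran from 11.54 to 11.82 in lithium-treated medulla, also overlapping with control, with a log2 difference of 0.14 (95% interval -0.14 to 0.42, adjusted p = 0.556).

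Fxyd1 had the largest positive difference of the 8 in medulla. Its log2 signals were 7.04 to 8.73 in control (median 8.22) and 8.34 to 9.02 in lithium-treated medulla (median 8.70), and 3 of 6 lithium-treated arrays lay above every control array. The log2 difference was 0.74 (standard error 0.280, 95% interval 0.13 to 1.36, adjusted p = 0.176), a 1.68-fold higher mean. The controls of animals 15 (7.27) and 30 (7.04) were far below the other 4, which ran from 8.21 to 8.73. Within scan groups the difference was 0.25, 1.05 and 0.93. Without the arrays of animals 17, 18 and 30, which takes out the lowest control array, it was 0.44 (adjusted p = 0.542).

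The genes closest to Fxyd1 over the 24 median-centred arrays were C1qb, a complement gene of macrophages (Pearson r = 0.908), Entpd1 (0.906) and Alox5ap (0.901). Over deviations from the group means, Myl9, a gene of contractile cells, came first (0.920). Both measures cover cortex as well as medulla, and include the cortex array of lithium-treated animal 19, which had the highest Fxyd1 value (9.29). Macrophage markers (8 of 8 measured) had a mean log2 signal of 6.28 to 7.31 in control medulla and of 7.41 to 7.98 in lithium-treated medulla, with no overlap. Of these, 3 passed the test, Cd68 (1.06), Mrc1 (1.00) and C1qa (0.95). Intercalated cell markers (12 of 12 measured) did not overlap either, at 6.69 to 8.89 in control and 8.94 to 9.65 in lithium-treated medulla. Their lowest arrays were those of control animals 30 (6.69) and 15 (7.19), which were also the low Fxyd1 arrays. The macrophage markers were lowest in the same arrays, at 6.28 in animal 30 and 6.54 in animal 15. Of the 11 intercalated cell markers tested, 3 passed, Oxgr1 (2.13), Slc4a9 (1.99) and Atp6v1g3 (1.10). Smooth muscle and pericyte markers (7 of 8 measured) ran from 7.32 to 7.82 in control and from 7.47 to 7.95 in lithium-treated medulla, and none of the 6 tested passed. The part of these cells in the Fxyd1 difference was not tested.

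Fxyd4 and Fxyd2 had negative differences in medulla. Fxyd4 ran from 9.55 to 11.20 in control (median 10.51) and from 9.14 to 10.38 in lithium-treated medulla (median 9.82), with 2 of 6 lithium-treated arrays below every control array. Its log2 difference was -0.66 (standard error 0.366, 95% interval -1.46 to 0.15, adjusted p = 0.342), and it was -0.59, -0.82 and -0.56 within the scan groups. Fxyd2 ran from 10.25 to 10.83 in control (median 10.51) and from 9.39 to 10.75 in lithium-treated medulla (median 10.15), with 4 of 6 lithium-treated arrays below every control array. Its log2 difference was -0.42 (standard error 0.211, 95% interval -0.88 to 0.04, adjusted p = 0.297).

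The lowest Fxyd2 arrays were those of lithium-treated animals 17 (9.39) and 18 (9.87), and these had the thick ascending limb marker Umod at 5.76 and 8.02, against 10.63 to 12.37 in the other 4 lithium-treated arrays. Control animal 30 had the lowest Umod (8.63) and the lowest Fxyd2 (10.25) of the controls. This Fxyd2 value lay above those of lithium-treated animals 21 (10.10) and 19 (10.19), whose Umod was 10.63 and 11.31. Umod was also among the 3 genes closest to Fxyd2 over the 24 median-centred arrays (Pearson r = 0.887), after Marchf8 (0.897) and Thrb (0.888). Without the arrays of animals 17, 18 and 30 the Fxyd2 difference was -0.19 (adjusted p = 0.672), and that of Fxyd4 was -0.76 (adjusted p = 0.490). The part of the segment markers in these differences was not tested.

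Fxyd3 and Fxyd5 had small positive differences in medulla. Fxyd3 ran from 5.72 to 6.77 in control and from 6.01 to 6.88 in lithium-treated medulla, and the log2 difference was 0.38 (95% interval -0.06 to 0.81, adjusted p = 0.314). Fxyd5 ran from 7.60 to 8.42 in control and from 8.02 to 8.45 in lithium-treated medulla, and the log2 difference was 0.26 (95% interval -0.06 to 0.58, adjusted p = 0.354). Both genes overlapped between the diets.

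**Figure D2:**
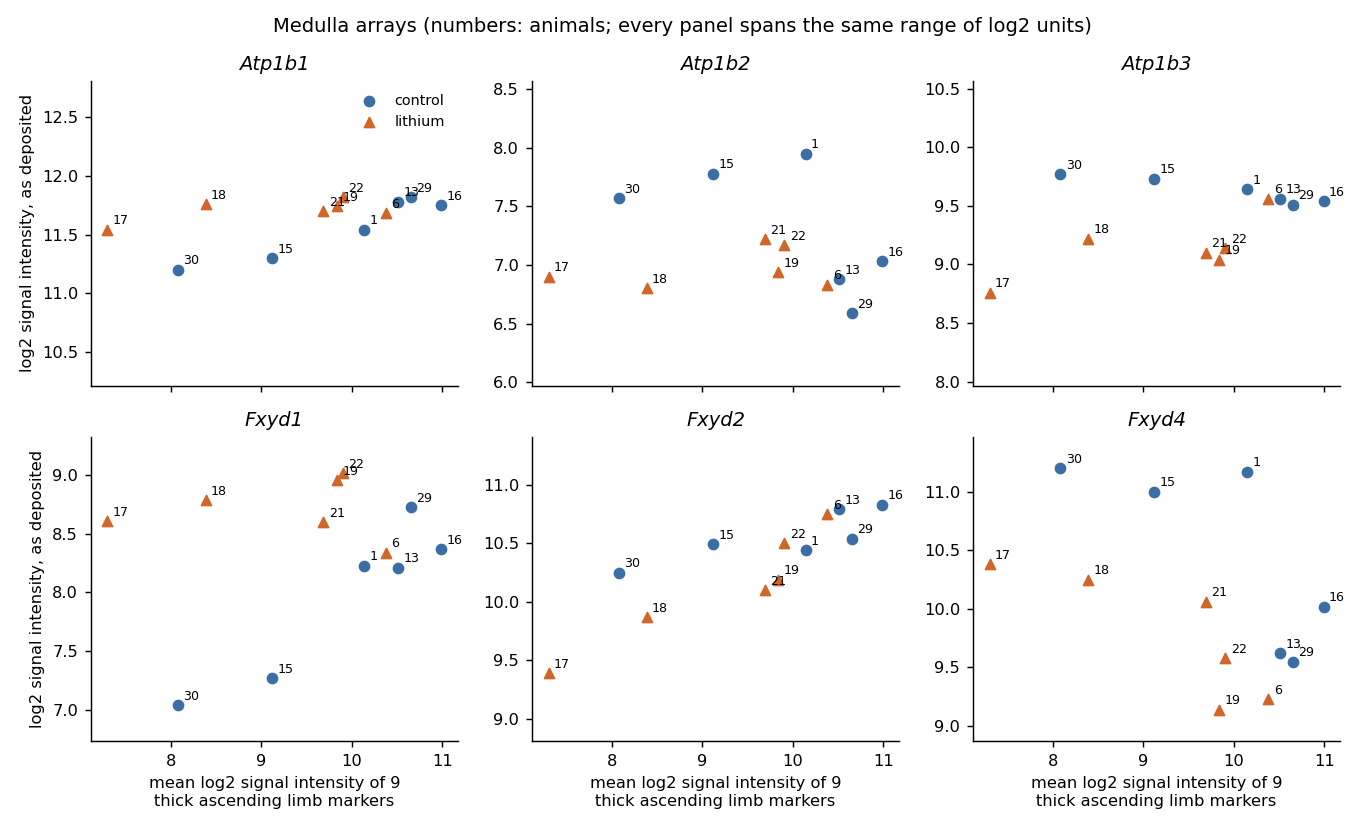
Deposited log2 signal intensity of 6 of the genes (y axis) in the 12 medulla arrays against the mean log2 signal intensity of 9 thick ascending limb markers on the same array (x axis), with animal numbers beside the points. Fxyd2 is lowest at the left, in animal 17 (9.39), and is 10.25 in control animal 30, whose markers average 8.08. Fxyd4 is highest in control animals 1, 15 and 30 (11.00 to 11.20). In controls Atp1b3 is 9.77 in animal 30, at the lowest marker level, and 9.51 and 9.54 in animals 29 and 16, at the highest. In lithium-treated rats Atp1b3 is 8.76 in animal 17, at their lowest marker level, and 9.56 in animal 6, at their highest.

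In cortex none of the 6 genes tested passed (0.574% of all clusters did, 79 of 13766), none had groups without overlap (2.57% of clusters did), and none had an unadjusted p under 0.05. Atp1b2 and Fxyd3 were under the filter there, with log2 signals of 5.38 to 6.25 and of 5.16 to 5.74 over the arrays of both diets. Without the filter, their differences were 0.02 (adjusted p = 0.985) and -0.10 (adjusted p = 0.887).

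Atp1b1 varied little in cortex, at 11.49 to 11.65 in control (median 11.60) and 11.43 to 11.53 in lithium-treated rats (median 11.51). Its log2 difference was -0.09 with a 95% interval of -0.25 to 0.08 (adjusted p = 0.843), and it was negative within all 3 scan groups that hold both diets. Atp1b3 (-0.05, 95% interval -0.34 to 0.25), Fxyd2 (-0.09, -0.34 to 0.15) and Fxyd4 (-0.07, -0.33 to 0.19) had intervals around 0. The groups of all 4 genes overlapped.

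Fxyd5 and Fxyd1 had larger differences and much wider spreads in cortex. Fxyd5 ran from 5.93 to 6.52 in control and from 6.07 to 7.72 in lithium-treated cortex (median 6.36), a log2 difference of 0.40 (95% interval -0.17 to 0.97, adjusted p = 0.774). Fxyd1 ran from 7.07 to 7.89 in control and from 7.25 to 9.29 in lithium-treated cortex (median 7.82), a log2 difference of 0.39 (95% interval -0.32 to 1.10, adjusted p = 0.825). In both, the highest array was that of lithium-treated animal 19. Without it the differences were 0.09 for Fxyd5 and 0.01 for Fxyd1.

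That array stood apart in other genes as well. Its fibroblast markers (8 of 8 measured) averaged 8.76, against 6.23 to 7.11 in the other cortex arrays, leaving out that of animal 17. Its smooth muscle and pericyte markers averaged 8.44, against 6.48 to 7.08, and its macrophage markers 7.78, against 6.06 to 6.69. The genes closest to Fxyd5 over deviations from the group means were Timp1, an inhibitor of matrix proteinases (Pearson r = 0.937), Mustn1 (0.936) and the smooth muscle myosin gene Myh11 (0.931). These correlations include that array. The part of these cells in the values of Fxyd1 and Fxyd5 was not tested.

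**Figure D3:**
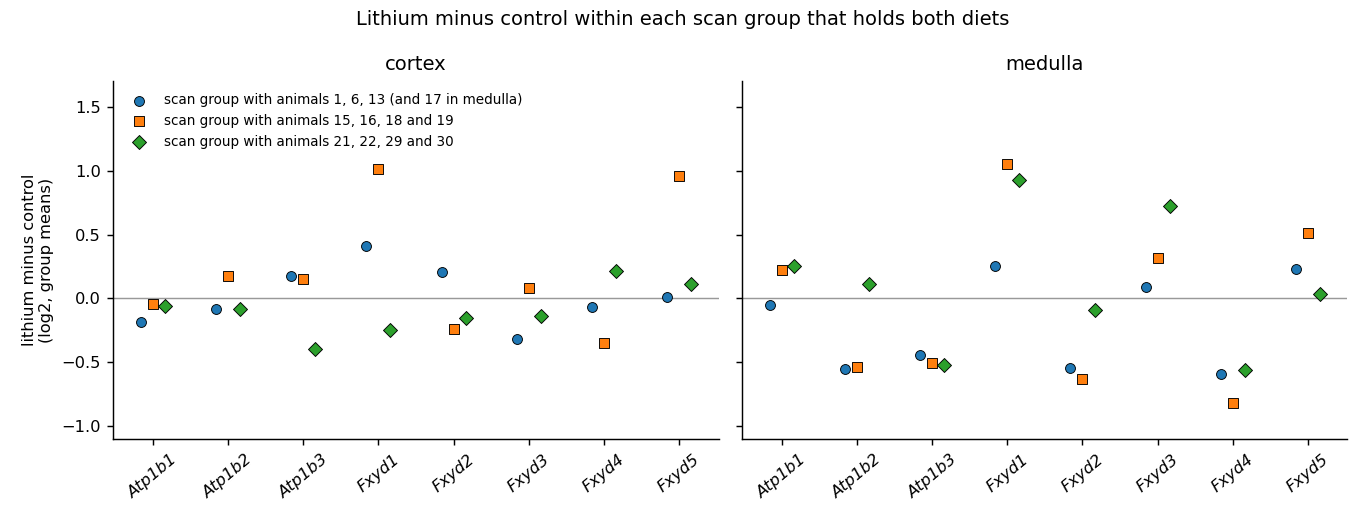
Lithium minus control (y axis, difference of mean deposited log2 signal) for each of the 8 genes within each scan group that holds both diets, in cortex and medulla. In medulla Atp1b3 lies between -0.52 and -0.44 in all 3 scan groups, while in cortex Fxyd1 and Fxyd5 are highest (1.02 and 0.95) in the scan group that holds animal 19.

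No gene of the 8 differed between the tissues in its response to lithium at the threshold (0.0915% of all clusters did, 15 of 16388). Atp1b3 came closest, with a medulla difference lower than that in cortex by 0.44 (95% interval of the signed value -0.85 to -0.04, adjusted p = 0.373), and the animal as a replicate block gave -0.35 (adjusted p = 0.455). The values of the other 7 ran from -0.59 for Fxyd4 to 0.48 for Fxyd3, whose cortex values were under the filter.

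**Figure D4:**
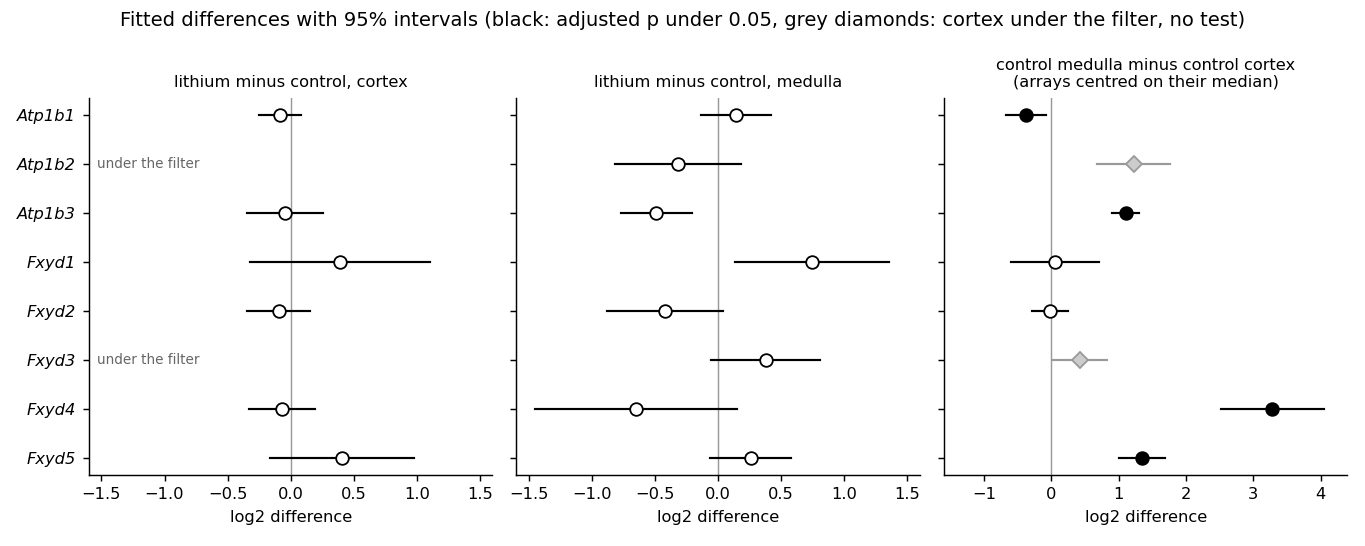
Fitted log2 difference (x axis) with its 95% interval for the 8 genes in the 3 comparisons, with filled black points for an adjusted p under 0.05 and grey diamonds for the genes whose cortex values were under the filter. Black points stand only in the tissue comparison, at 3.28 for Fxyd4, 1.35 for Fxyd5, 1.10 for Atp1b3 and -0.38 for Atp1b1, and the largest values in the lithium comparisons are 0.74 for Fxyd1 and -0.66 for Fxyd4 in medulla.

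The remaining pump genes and the transporters that work with the pump were described from lists. Of the pump and FXYD genes outside the 8, Atp1a4, Atp1b4, Fxyd6 and Fxyd7 were on the annotation, and Fxyd6 and Fxyd7 were bright enough to test. Neither passed in the lithium comparisons. After centring, Fxyd7, best known from brain, was lower in control medulla than in control cortex by 0.40 (adjusted p = 0.00377). Its deposited group means were 6.705 in control cortex and 6.665 in control medulla, so most of this difference rests on the centring. The alpha subunit Atp1a4, otherwise known from sperm, had group means of 4.75 to 4.97 and Atp1b4 of 4.37 to 4.60, under the filter. The H,K-ATPase genes Atp12a and Atp4b, whose pumps are close relatives that exchange protons for potassium, were under the filter too, with group means of 5.18 to 5.65 and of 5.42 to 5.76.

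Genes of apical sodium entry, the step that supplies the pump with sodium, formed a further list. Of 13 tested in cortex, 2 were lower in lithium-treated rats and none was higher, the gamma subunit of the epithelial sodium channel Scnn1g (-1.44, adjusted p = 0.0190) and the beta subunit Scnn1b (-0.87, adjusted p = 0.0443). In medulla none of 14 passed, and of the 12 that reached the filter value in both tissues 8 were lower in control medulla than in control cortex (19.7% of all such clusters were), led by the thiazide-sensitive cotransporter Slc12a3 (-3.98). Of 17 regulators of the pump, 1 was lower in lithium-treated cortex, Hsd11b2, which protects the mineralocorticoid receptor from glucocorticoids (-0.90, adjusted p = 0.0114), and none passed in medulla. Between control tissues, 10 of the 17 were higher in medulla and 1 was lower, as against 36.5% and 19.1% of all clusters. The largest differences were 1.87 for Nfat5, the tonicity-responsive factor, 1.27 for Tsc22d3, a gene induced by glucocorticoids (adjusted p = 0.00143), 1.21 for the kinase gene Sik1 and 1.13 for Camk2d, a calmodulin-dependent kinase gene.

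Of 7 genes tested in a list of potassium channels and genes of chloride exit, Kcnk1, a background potassium channel gene, was higher in lithium-treated cortex (0.72, adjusted p = 0.0486) and none passed in medulla. Of 11 other P-type ATPases, 1 passed in medulla, the plasma membrane calcium pump gene Atp2b4, which was higher in lithium-treated rats (1.46, adjusted p = 0.00265), and none passed in cortex. It was also the only gene of these pump and transport lists with a tissue difference of the lithium effect (1.23, adjusted p = 0.0462).

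The genes whose profiles over the 24 median-centred arrays were closest to the other members are given as a description, since the arrays share tissue, diet and scan group. Fxyd4 lay closest to Slc4a11, a borate transporter-like gene (Pearson r = 0.984), Wnt5a (0.982) and Fam234a (0.982). Over deviations from the group means it lay closest to Tpd52l1 (0.960), Il12rb2 (0.936) and Gata3 (0.936), a transcription factor of the collecting duct. Atp1b2 lay closest to Arsg (0.966), Atp1b3 to Rps6ka5 (0.981), Fxyd5 to Runx1 (0.977), Atp1b1 to the carbonic anhydrase gene Car12 (0.954), and Fxyd3 to Klf13 (0.901) and the keratin gene Krt15 (0.899).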

How the data were processed

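RNA of cortex and medulla was measured on Affymetrix rat whole-transcript arrays. The values are the log2 signal intensities of 28894 transcript clusters that the authors deposited. To make them, the authors used RMA in Partek (background correction, then quantile normalization, the log2 scale and median polish), and scan date was taken out by an analysis of variance within each tissue. The submitters' processing notes name Partek, RMA and rn4, and give no versions. A value on this scale has no measured background, and no detection call was used.

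Clusters were named from the platform annotation (15097 with 1 symbol, 323 with several, 13474 with none). For each gene the cluster with the highest mean was used. A cluster was tested if it reached a log2 signal of 6 on 4 or more of the 12 arrays compared. The tests used lmFit and eBayes of limma 3.58.1, run in R 4.3.3, with Benjamini-Hochberg adjustment over all clusters tested and a threshold of 0.05. Scan groups were recovered from combinations of arrays without residual variance and entered the fits. They are {1, 6, 13}, {15, 16, 18, 19}, {21, 22, 29, 30} and {17} in cortex, by animal, and in medulla the same with animal 17 in the first. The labels give no dates to check them against. The recovery was tried on simulated data, where 40 of 40 structures were found. Every simulated group held both diets and more than 1 array, so a group like {17} in cortex was not tried. Within scan groups, exact 2-sided permutation tests of single genes used 108 exchanges in cortex and 216 in medulla (numpy 2.4.6). For the tissue comparison each array was centred on its median. Whether the tissues were scanned together is not known, so a shift of a whole tissue with scan date cannot be told apart from tissue. Cortex and medulla arrays are paired by the animal number of the labels. The main fit of the tissue comparison held no animal term, so it left this pairing out, and the animal as a block was an alternative. Over 11 animals the correlation of their deviations from the group means ran from -0.0867 to 0.438 and was over 0.1 in 6. In 2 of the 11 the cortex array correlated most with the medulla array of its own animal. Animals are the replicates.

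Data were simulated with 1 variance per cluster, pooled over both tissues, and no pairing by animal. The rates are therefore approximate where a cluster varies more in one tissue. With scan group in the fit, 4.73% of unchanged clusters in cortex, 5.01% in medulla and 7.11% in the tissue comparison had an unadjusted p under 0.05. By this measure p-values of the tissue comparison are somewhat too small. A log2 change of 0.5 was recovered in 31.3% of clusters in cortex, 40.3% in medulla and 29.9% between tissues. A change of 1 was recovered in 80.6%, 94.0% and 85.1%. Without scan group in the fit, 12.2%, 7.91% and 10.7% of unchanged clusters had an unadjusted p under 0.05.

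The 8 genes, the gene lists and the tests were chosen with earlier results of these data known. The genes named are all 8, up to 4 of each list past the threshold with the largest change, and for each of the 8 up to 3 genes with the highest Pearson r by each of 2 measures. Genes and markers given beside a result outside this rule were chosen after their values were seen. They are Aqp2, Scnn1a, Hsd11b2, Akr1b1, Cryab and Slc14a2 in medulla, Umod and the pump genes under the filter. The levels of the thin limb and intercalated cell lists were also chosen in this way. Promoter sequences and gene order come from RefSeq on build GRCr8. Alternatives were other scan group terms, filters, centring and normalization, an unmoderated test, the animal as a replicate block, and each array left out in turn. Figures were drawn with matplotlib 3.10.9.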

Additional observations from a re-analysis of the deposited data

How the results depend on the processing

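Of the 8 genes, none was called for lithium under any setting except Atp1b3 in medulla, which made the count of genes called there 1 without scan group, with scan group as a random block (which gave the same fit) and without scan group and the array of animal 6. Clusters called for lithium in cortex were 79, against 288 without scan group, 372 with a random block, 14 with the unmoderated test and 152 without scan group and animal 17. In medulla 190 became 1052, 1052 and 37 in the first 3 of these settings, 2026 without scan group and animal 6, and 25 without animals 17, 18 and 30. The tissue comparison called 8667, against 15926 with no filter. With the animal as a replicate block it called 9770. The tissue difference of the lithium effect gave 15 clusters, against 357 without scan group, 7 unmoderated, 9 centred and 5 with the replicate block. The causes were not tested. Leaving out each array in turn gave 34 to 92 clusters in cortex, 50 to 1053 in medulla (the highest without animal 6), 7126 to 9070 between tissues and 8 to 154 for the tissue difference (the highest without the medulla array of animal 6), with 0 to 1, 4 to 5 and 0 of the 8 genes called in medulla, between tissues and in the others. The counts between tissues include Atp1b2, which reached the filter through medulla alone. Signs turned for Fxyd2 between tissues (-0.02 to 0.34 as deposited, 0.083 after quantile normalization and 0.082 without the medulla arrays of animals 15 and 30) and for Fxyd1 (0.05 to -0.13 after quantile normalization). With an array left out, ranges crossed 0 for Fxyd2 (-0.091 to 0.046) and Fxyd1 (-0.23 to 0.33) between tissues, Fxyd4 (-0.13 to 0.026) and Atp1b3 (-0.15 to 0.048) in cortex and Fxyd5 for the tissue difference (-0.30 to 0.17). None of these had passed before the change of setting, and Fxyd2 as deposited did (adjusted p = 0.0302). Settings that leave out named animals beyond single arrays, or combine this with dropping scan group, were chosen after seeing the data. Averaging several clusters of a gene could not be tried, since each had 1. Lithium-treated and control arrays numbered 6 each, which limits the precision of every value.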

Other observations

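Fxyd5, Fxyd7, Fxyd1 and Fxyd3 lie beside each other in the RefSeq gene order of the rat (build GRCr8), with no gene between the first 3 and 1 gene, Lgi4, between Fxyd1 and Fxyd3. In the centred comparison of control medulla with control cortex, these neighbours had log2 differences of 1.35 for Fxyd5, -0.40 for Fxyd7, 0.05 for Fxyd1 and 0.42 for Fxyd3 (its cortex values were under the filter). Fxyd5 and Fxyd7 passed the test in opposite directions on these centred values. As deposited, the group means of Fxyd7 were 6.705 in control cortex and 6.665 in control medulla, so most of its difference rests on the centring. Fxyd6 and Fxyd2 are also neighbours, and their log2 differences were 0.26 and -0.02, of which neither passed. Neighbours were looked up after the values were seen, and differences between neighbours were not tested.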
